A study of Mus musculus with 4 samples.

Results

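The genes described here encode the molecular motors of the cytoskeleton, and their m6A peaks were followed in the spinal cord of mice with and without a nerve injury. They were chosen by gene name from the 3 deposited peak tables: kinesins (names starting with *Kif* or *Klc* and a digit), dynein chains (*Dync*, *Dynl*), dynactin (*Dctn*) and myosins (*Myo*, *Myh* and a digit). The rule took 264 of 33556 peaks in the CCI list, 258 of 34406 peaks in the sham list and 62 of 4812 rows in a table of regions that the authors listed as differing between the groups. Together these peaks lay in 67 of the 13554 genes with a peak in either list. One of the 67, *Kif1bp*, encodes a kinesin-binding adaptor and not a motor, and it was kept because the rule goes by name.

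MeRIP-seq captures RNA fragments with an antibody against m6A (the IP library) and compares them with uncaptured RNA of the same sample (the input library). C57BL/6J mice aged 6 to 8 weeks received either a chronic constriction injury (CCI), made by loose silk ties on the sciatic nerve, or a sham operation without ties, and spinal cord was taken on day 7. Each group had 1 IP and 1 input library, and the number of mice behind a library is not given in the sources used here. Replicates are thus lacking, and CCI and sham are compared by their values alone, with no test. The value of a peak is the authors' fold enrichment, a ratio of IP over input, which describes the capture of RNA and not the expression of the gene. Sequencing depth is unknown, since no table gives counts of reads.

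Kinesins and dynein carry cargo along microtubules, most kinesins towards the axon terminal and dynein, together with dynactin, back to the cell body. Myosins work on actin filaments, where unconventional myosins move or tether membranes and class II myosins build contractile filaments. In neurons with long axons these motors carry vesicles, mitochondria, receptors and mRNA. m6A is a methyl mark placed on adenosines of mRNA, mostly within a short consensus that contains GGAC, and it is most frequent near stop codons, in 3′-UTRs and in long internal exons.

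Peaks overlapped the first 50 bases after RefSeq transcription starts of 12 motor genes (14 starts), with 10 genes in each list. Such starts are called covered, although the start base itself lay outside the peak at some of them, such as that of *Kif21a*. The sequences are shown because these are the motor gene regions whose bases could be read from the RefSeq table of GRCm38.p6, in which 50 of the 67 genes had an entry. The first 50 bases after each start were searched for GGAC on both strands, and 5 of the 14 covered starts held it on the transcript strand. Of all 32851 starts in the table, 18.9% held GGAC in the same stretch on the transcript strand and 17.4% held it on the other strand. The 4 matches that lay inside a peak with 10 flanking bases in the table are printed 5′ to 3′ on the plus strand, with GGAC in capitals. They come from *Dctn1*, the dynactin subunit that binds microtubules (chr6:83185950-83185973 and chr6:83185963-83185986), *Dynlrb1*, a dynein light chain (chr2:155236530-155236553), and *Myh10*, a non-muscle myosin heavy chain (chr11:68691922-68691945).
Dctn1, first match: gatggtgatgGGACagagaggaag
Dctn1, second match: cagagaggaaGGACagctttgcac
Dynlrb1: tctccacaaaGGACtgtgcgcagg
Myh10: ggagggagcgGGACttgggaaggt

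The 2 *Dctn1* matches lay in a 5′-UTR peak with a fold enrichment of 4.00 in CCI and 4.07 in sham. The *Myh10* match lay in a 5′-UTR peak of 23.5 in CCI and 29.1 in sham. The *Dynlrb1* match was inside the sham peak, at 3.82, and outside the shorter CCI peak, at 1.58. Such a match describes the letters in a window and does not place a modified base. The antibody also binds m6Am, a related mark on a first transcribed adenosine. Of the 14 covered starts, 2 began with A by RefSeq, against 34.4% of all starts. The A of the *Kif21a* start lay outside the peaks of both lists. The A of the *Dctn1* start at chr6:83179589 lay inside a sham peak (2.26) and outside the CCI peaks. These shares thus do not count first bases under a peak, and a part of m6Am in the peaks was not tested.

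The lists carried peaks in markers of the labelled tissue. All 4 oligodendrocyte, 3 astrocyte, 3 microglia and 4 spinal Hox genes looked up had a peak in both lists, as did 5 of 6 neuronal genes, with *Nefl* absent from both. Of 8 skeletal muscle genes, 0 had a peak in CCI and 2 had one in sham (*Mylpf* and *Tnnt3*). Among 5 genes of proliferating cells only *Mki67* had a peak, in both lists. These markers are set beside the muscle myosins and the mitotic kinesins.

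Motor genes carried more peaks per gene than the average gene, and the peaks were labelled more often as exon and less often as UTR. The mean was 4.19 peaks per motor gene in CCI and 3.85 in sham, against 2.70 and 2.67 over all genes with a peak. In CCI, 50.4% of the motor peaks (95% Wilson interval 44.4 to 56.4%) were annotated to an exon outside the UTRs, against 35.5% of all peaks. The 3′-UTR held 38.6% (33.0 to 44.6%) against 49.8%, and the 5′-UTR held 11.0% (7.76 to 15.3%) against 14.7%. Sham gave the same order, with 47.7% in exons, 39.5% in 3′-UTRs and 12.8% in 5′-UTRs, against 35.1%, 48.9% and 16.1% of all sham peaks. These intervals cover counting error only, and peaks of 1 gene are not independent of each other.

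**Figure D1:**
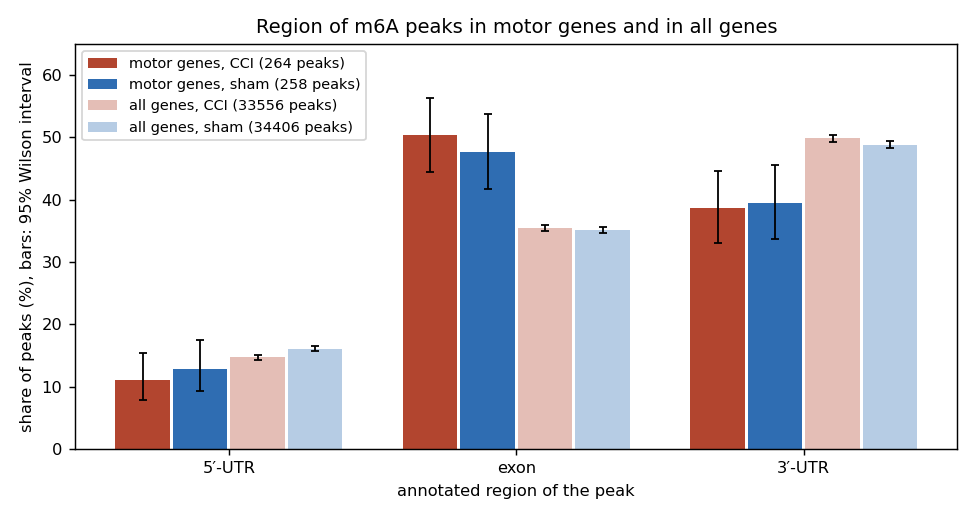
Share of m6A peaks (%) by annotated region in the 264 CCI and 258 sham peaks of motor genes (full colour) and in all peaks of each list (pale), with 95% Wilson intervals for counting error. The exon bars of the motor genes stand at 50.4% and 47.7%, above the 35.5% and 35.1% of all peaks, and their 3′-UTR bars stand below.

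The exon peaks of motor genes were mostly internal ones. Only 7 of 133 exon peaks in CCI (5.26%) and 8 of 123 in sham (6.5%) lay in the last exon of the annotated transcript, whereas 30.8% and 32.5% of all exon peaks did. Exon 1 held 2 of the 133 and 1 of the 123, against 17.8% and 19.4% of all exon peaks. Nearly as many motor peaks crossed a splice junction as did not: 45.5% in CCI (39.6 to 51.5%) and 49.2% in sham (43.2 to 55.3%) spanned more than 1 exon block, against 24.6% and 25.3% of all peaks. *Kif21b*, a kinesin of dendrites and axons, had a peak over 7 exon blocks from exon 11 of 35 with the same borders in both lists (809 bp, 11.6 in CCI and 13.8 in sham). *Kif5a*, a neuronal heavy chain of kinesin-1, had one over 6 blocks from exon 10 of 29 (661 bp, 3.00 and 4.11).

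The motor peaks were lower than the average peak. Their median fold enrichment was 4.20 in CCI (interval of the median 3.34 to 4.97) and 4.17 in sham (3.43 to 5.23), against 5.73 and 5.70 over all peaks. The gap was widest in the 5′-UTR, at 4.54 and 4.46 for motor genes against 8.51 and 8.21. In exons the medians were 3.80 and 4.11 against 4.69 and 4.78.

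Nearly all motor peaks had a counterpart in the other list. Counting any shared exonic base (at least 1 bp), 90.5% of the CCI peaks (239 of 264) and 88.4% of the sham peaks (228 of 258) had one, against 87.7% and 83.9% of all peaks. The 25 CCI peaks without a counterpart had a median fold enrichment of 2.03, and the 30 sham peaks without one had 3.12. Those without a counterpart were thus lower than the motor peaks at large in both lists. All peaks of the series showed the same order, with medians of 3.17 without and 6.14 with a counterpart in CCI, and 4.13 and 6.01 in sham.

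Comparing CCI with sham asks how the m6A enrichment of these transcripts differed after nerve injury, and over the motor genes as a whole the difference was centred near 0. Mutual best partners gave 222 pairs of motor peaks out of 27380 pairs. The median log2 ratio of fold enrichment, CCI over sham, was 0.01 (−0.09 to 0.10), against 0.03 over all pairs. The quartiles were −0.32 and 0.34, inside the −0.37 and 0.43 of all pairs. CCI was lower in 108 of the 222 pairs (48.6%), against 47.8% of all pairs.

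A log2 ratio of at least 1 in either direction, a 2-fold difference, was taken as past the fold. CCI was past the fold on the higher side in 17 of 222 pairs (7.66%, against 8.59% of all pairs) and on the lower side in 15 (6.76%, against 7.25%), and 190 pairs were within it. When a pair had to share at least 50% of both peaks, 203 motor pairs were left, with 17 higher and 8 lower. No share of all pairs is given at this overlap. The calls lost were in *Kif1b*, *Kif3c*, *Kif16b*, *Kif26a*, *Kif26b*, *Klc3* and *Myh7b*. Across the 222 pairs the rank correlation of the 2 lists' fold enrichments was 0.88, and it was 0.85 over all pairs, in both cases across peaks, which are not replicates. Of 30 motor genes with at least 4 pairs, 29 had pairs in both directions, 1 (*Kif7*) had all pairs higher in CCI and 0 had all pairs lower. The peaks of 1 transcript thus mostly lay on both sides of equality.

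**Figure D2:**
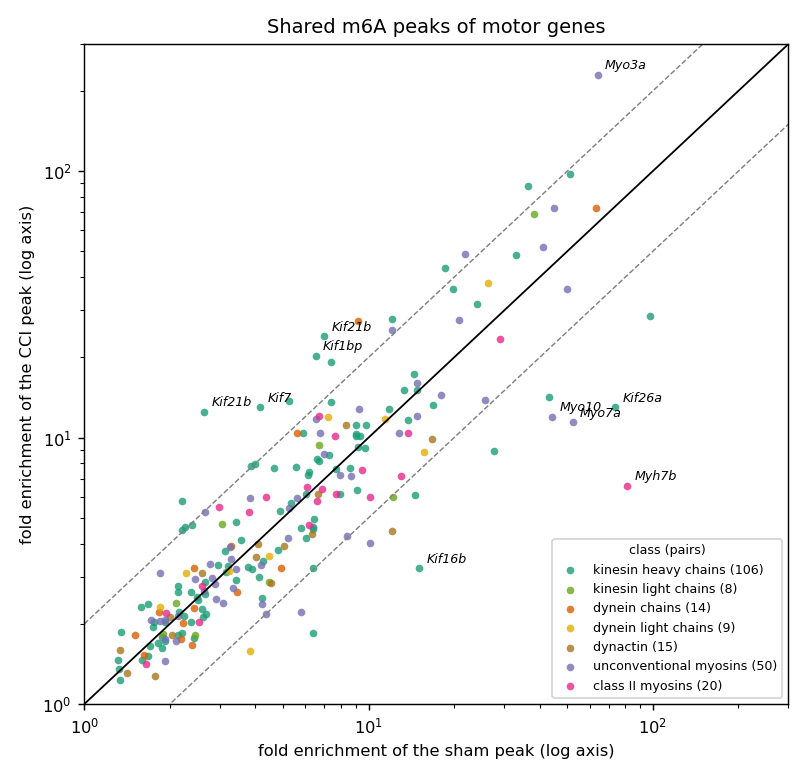
Fold enrichment (IP over input) of the 222 shared peaks of motor genes, sham on the x axis and CCI on the y axis, both on log axes, coloured by motor class. The solid line marks equal values and the dashed lines a 2-fold difference, 32 pairs lie on or outside the dashed lines, and the 5 largest differences in each direction carry gene names.

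The size of a difference went with the height of the peak. Of the 33 motor pairs with a geometric mean fold enrichment under 2, 0 were past the fold. From 2 to 5 it was 7.41% of 81 pairs, from 5 to 10 it was 15.0% of 60, from 10 to 20 it was 26.9% of 26, and from 20 upwards 45.5% of 22. All pairs of the series showed the same order, from 0.119% to 29.5%. The highest fold enrichments thus differed most between these 2 lists, in motor genes and in general.

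Kinesin-1, the main plus-end motor of axonal vesicles, mitochondria and mRNA granules, had 24 pairs with a median log2 ratio of −0.05, of which 15 were lower in CCI. These counts include the 8 pairs of the light chains. Its heavy chain gene *Kif5a* had 9 peaks in CCI and 8 in sham, and its 8 pairs ran from low to moderate values in both. The highest, over the 5′-UTR (chr10:127262988-127263288), was 11.2 in CCI and 9.81 in sham. *Kif5b*, the ubiquitous heavy chain, had only low exon peaks, at most 2.27 in CCI and 2.68 in sham. *Kif5c*, the other neuronal heavy chain, had 6 pairs, 5 of which lay between 2.15 and 3.89 in either list. The sixth, in the 3′-UTR (chr2:49774629-49774778), stood at 5.80 in CCI and 2.21 in sham, a log2 ratio of 1.39.

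The kinesin light chains, which link kinesin-1 to its cargo, gave 8 pairs, 4 of them lower in CCI (median log2 ratio 0.07). *Klc2* carried the highest of their peaks, a 3′-UTR peak with identical borders in both lists (chr19:5107746-5108016) at 69.2 in CCI and 38.3 in sham. *Klc1* stood at 9.36 and 6.68 in its highest peak, also in the 3′-UTR. *Klc3* was past the fold in the other direction, with 5.99 in CCI and 12.2 in sham in exon 3 of 13 (log2 ratio −1.03). That CCI peak was a weak call, with a log10 false discovery rate of −1.85 against input, and the pair was lost at a false discovery rate below 0.01 and at the 50% overlap. *Klc4* had low peaks only, at most 1.81 in CCI and 2.46 in sham.

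Kinesin-3 motors, which carry synaptic vesicle precursors and dense core vesicles, had 28 pairs with a median log2 ratio of 0.17. *Kif1a*, the main carrier of synaptic vesicle precursors, had 6 pairs, with a highest shared value of 3.44 in CCI and 4.27 in sham. Its highest CCI peak, at 7.17 over the 5′-UTR, had no counterpart in sham. *Kif1b*, which also carries mitochondria, had 10 peaks in each list and 8 pairs, 7 of them higher in CCI. *Kif1c* stood at 48.5 in CCI and 33.0 in sham in a 3′-UTR peak. A second peak labelled 3′-UTR (chr11:70707558-70709019) was just past the fold at 7.82 and 3.85. It lies upstream of the gene's peak in exon 20 of 23 (chr11:70724885-70725189 in CCI), so its region label is uncertain. *Kif13a* (10.3 and 9.10) and *Kif13b* (15.1 and 14.8) had highest peaks of similar value in both lists. *Kif16b*, a kinesin of early endosomes, had 1 of the 5 largest differences on the lower side, a 5′-UTR peak at 3.23 in CCI and 15.1 in sham (log2 ratio −2.22), yet these were weak calls with log10 false discovery rates of −1.69 and −2.92 against input.

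Kinesin-2 motors, which serve cilia and axonal transport, had 21 pairs with a median log2 ratio of 0.12, 3 past the fold on the higher side and 1 on the lower. *Kif3b* carried the second highest motor peak in CCI, over exon 2 of 9 and the 3 blocks after it (chr2:153316874-153320887), at 97.7 in CCI and 51.1 in sham (log2 ratio 0.94). *Kif3a*, its partner in the same motor, was at 7.42 and 6.16, and all 3 of its pairs were higher in CCI. *Kif3c*, the neuronal alternative to *Kif3b*, had highest peaks of 11.1 in CCI and 27.7 in sham, which are not partners of each other. Its highest pair, at 8.93 and 27.7, was lost at the 50% overlap, where the highest pair left had a log2 ratio of −0.01.

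Kinesin-4 genes showed the most one-sided values among the kinesin groups. Of 18 pairs, 14 were higher in CCI, with a median log2 ratio of 0.25, and 4 were past the fold, all on the higher side. *Kif21b*, with 10 peaks in CCI and 13 in sham, held the largest such difference of all motor pairs, a peak labelled 3′-UTR (chr1:136162979-136163298) at 12.5 in CCI and 2.64 in sham (log2 ratio 2.24, the 99.0th percentile of all pairs). The CCI peak covered 240 bp over 2 blocks and the sham peak 120 bp in 1 block. Their log10 false discovery rates against input were −18.1 and −3.62, so the sham call was weak. The peak lies upstream of the other 3′-UTR peaks of the gene, and its region label is uncertain. A second *Kif21b* peak, over exon 7 of 35 with the same borders in both lists (chr1:136148720-136149598), was at 24.0 and 6.97 (1.78). The other 8 pairs of the gene were within the fold, and 2 *Kif21b* exon peaks of the sham list, at 15.1 and 1.87, had no counterpart in CCI. *Kif21a*, mutated in congenital fibrosis of the extraocular muscles, had a 5′-UTR peak at 43.3 in CCI and 18.6 in sham. The CCI peak covered 121 bp and the sham peak 61 bp. The log10 false discovery rates against input were −12.6 and −3.6, so this sham call was weak too. *Kif7*, a ciliary regulator of Hedgehog signalling, had 4 pairs, all higher in CCI, from 8.34 and 6.58 up to 13 and 4.15 (log2 ratio 1.65), but the latter rested on log10 false discovery rates of −3.01 and −2.88 against input.

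Ciliary motors as a group had 25 pairs, 18 of them higher in CCI, with a median log2 ratio of 0.15. That group shares *Kif3a*, *Kif3b*, *Kif7*, *Kif17* and *Kif27* with the kinesin-2 and kinesin-4 groups, so the counts are not separate evidence. *Kif19a*, which limits the length of cilia, had the highest motor peak of the sham list, a 3′-UTR peak with identical borders in both lists (chr11:114790141-114790679), at 28.7 in CCI and 97.6 in sham (log2 ratio −1.77). Ciliated cells of the cord line the central canal, and 2 of 4 ependymal markers (*Foxj1* and *Rsph1*) had a peak in both lists. Of the mitotic kinesins that the name rule takes in, only *Kif20a* had a peak, at 7.69 in CCI and 4.65 in sham. *Kif2a*, a microtubule-depolymerizing kinesin, had a single low peak in its 3′-UTR, at 1.47 and 1.59.

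**Figure D3:**
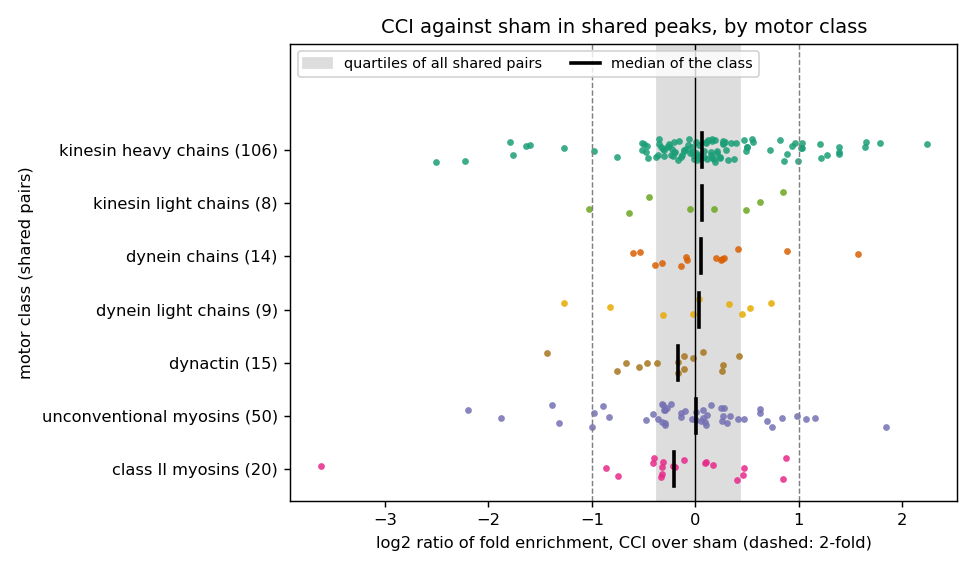
Log2 ratio of fold enrichment, CCI over sham, for each shared peak (points) by motor class, with the class median (black bar), the quartiles of all 27380 shared pairs (grey band, −0.37 to 0.43) and the 2-fold limits (dashed). All 7 class medians, from −0.21 for class II myosins to 0.07 for the kinesin chains, lie inside the grey band.

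Cytoplasmic dynein 1, the retrograde motor, gave 14 pairs, 7 in each direction, with a median log2 ratio of 0.06. *Dync1h1*, its heavy chain, carried 1 of the 5 highest motor peaks of both lists, a 3′-UTR peak with identical borders (chr12:110666324-110666945) at 72.5 in CCI and 63.2 in sham. Its other peaks were low, between 1.18 and 3.45. *Dync1i2*, an intermediate chain, had a 3′-UTR peak (chr2:71263123-71263303) at 27.4 in CCI and 9.17 in sham (log2 ratio 1.58), the largest difference among dynein genes. *Dync1i1*, the neuronal intermediate chain, had 1 pair at 3.25 and 4.94. Of the light intermediate chains, *Dync1li1* was at 10.4 and 5.61 in its 3′-UTR, and *Dync1li2* had 5 pairs of at most 3.91 and 3.28.

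Of the dynein light chains, *Dynll2* carried 5 peaks in each list, the highest in the 3′-UTR at 38.0 in CCI and 26.4 in sham, and a 5′-UTR peak with identical borders at 11.7 and 11.4. *Dynll1*, its close relative, had a single 3′-UTR peak at 3.60 and 4.46. *Dynlt1b* and *Dynlt1c* are near-identical copies, so their values (2.32 and 1.85 for *Dynlt1b*, 8.86 and 15.7 for *Dynlt1c*) are uncertain, as reads may be split between them.

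Dynactin, the complex that makes dynein processive, had 15 pairs with a median log2 ratio of −0.16, and 11 of the 15 were lower in CCI. *Dctn1* supplied 9 of them, 7 lower in CCI. Its only pair past the fold, at 4.48 in CCI and 12.1 in sham, lies in an exon that the authors' annotation gives to another gene ID, so its gene is uncertain. The 3′-UTR peak of *Dctn1* (chr6:83199787-83200117, same borders) was at 11.2 and 8.33. *Dctn2* (4.34 and 6.32), *Dctn3* (1.82 and 2.04) and *Dctn5* (9.90 and 16.7) had lower values in CCI, and *Dctn6* (3.11 and 2.59) a higher one. *Dctn4* had no peak in either list.

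**Figure D4:**
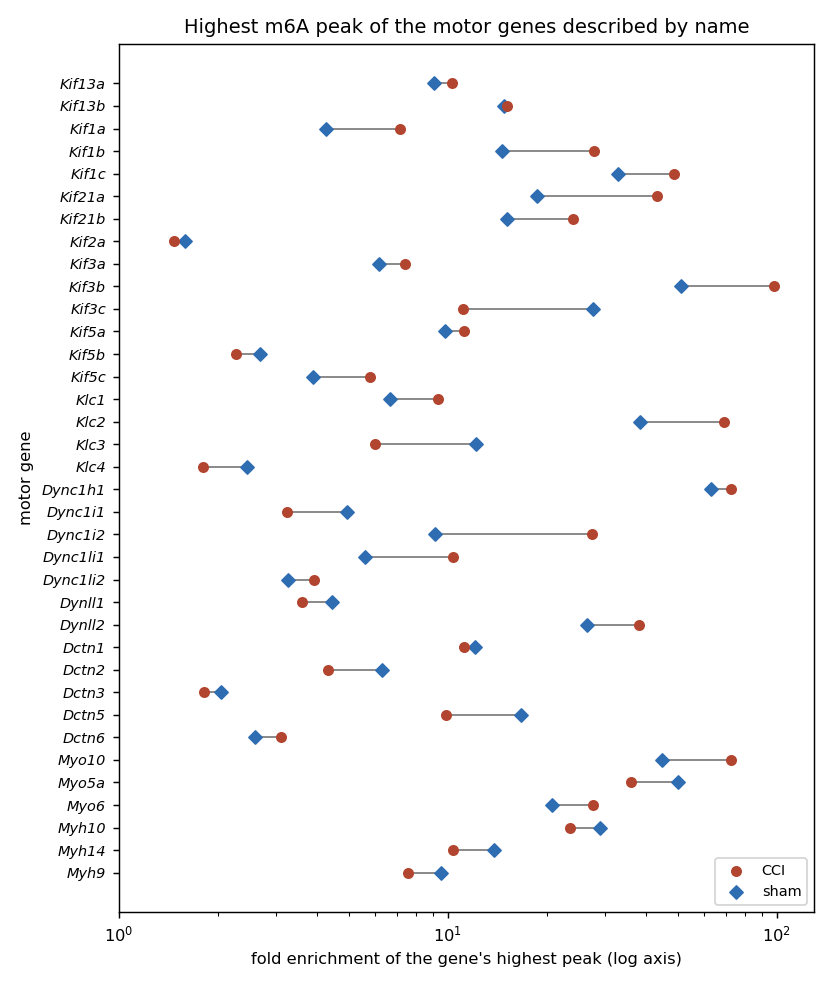
Fold enrichment (log axis) of the highest peak of each of 36 motor genes in the CCI list (circles) and the sham list (diamonds), grouped from kinesins at the top to class II myosins at the bottom. *Kif3b*, *Dync1h1*, *Myo10* and *Klc2* stand farthest to the right in CCI (97.7, 72.5, 72.6 and 69.2), and *Kif2a* farthest to the left. The 2 highest peaks of a gene need not be the same region.

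Unconventional myosins had 50 pairs with a median log2 ratio of 0.01, 24 of them lower in CCI. *Myo5a*, the vesicle and endoplasmic reticulum motor of dendritic spines, had its highest peak over the 5′-UTR (chr9:75071165-75071584), at 36.0 in CCI and 50.0 in sham, and its 3′-UTR peak with equal borders stood at 7.21 and 7.94. *Myo6*, the myosin that moves towards the minus end of actin, had 1 pair at 27.7 and 20.8. *Myo18a* had the most peaks of any motor gene in CCI (13, against 12 in sham), and its 12 pairs were split evenly, 6 in each direction. The highest was a 3′-UTR peak at 25.4 in CCI and 12.1 in sham (log2 ratio 1.07).

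Myosins of actin protrusions (*Myo3a*, *Myo7a* and *Myo10*) had 10 pairs with a median log2 ratio of −0.56, 7 of them lower in CCI, with 3 past the fold on the lower side and 1, the *Myo3a* peak, on the higher. *Myo10*, the motor of filopodia, gave 6 of the pairs. A peak from exon 23 of 41 (chr15:25779670-25781149) was at 72.6 in CCI and 44.9 in sham, while a 3′-UTR peak with the same borders in both lists (chr15:25813433-25813673) was at 12 and 44.2 (log2 ratio −1.88) and another 3′-UTR peak at 4.04 and 10.1 (−1.32). The first of these pairs was within the fold. *Myo7a*, a myosin of sensory hair cells, had a 3′-UTR peak at 11.4 and 52.3 (−2.20). The single *Myo3a* peak was the highest of all motor peaks in CCI, at 230 against 63.9 in sham (1.85, same borders, chr2:22590024-22590264), but the authors' annotation places it in the exon of another gene ID, so it is not read here as a *Myo3a* value.

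Class II myosins had 20 pairs with a median log2 ratio of −0.21. The non-muscle heavy chains *Myh9*, *Myh10* and *Myh14* gave 12 of them, 9 lower in CCI, all between −0.41 and 0.17. Their highest values were 7.58 in CCI and 9.52 in sham for *Myh9*, 23.5 and 29.1 for *Myh10*, and 10.4 and 13.8 for *Myh14*. The 3 genes had 20 peaks in CCI and 12 in sham, but most of the CCI peaks shared bases with a sham peak. The single *Myh14* sham peak, over 18 exon blocks, lay over all 3 *Myh14* peaks of CCI. Only a *Myh10* peak in exon 2 (1.95) and a *Myh9* 3′-UTR peak (2.64) of CCI had no counterpart. When a pair had to share at least 50% of both peaks, the class II median became −0.00, with the pairs of most unequal length left out.

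The muscle-type myosin genes gave 8 pairs between −3.62 and 0.88. *Myh7b*, which is also expressed in brain, held the largest difference of all motor pairs, 6.60 in CCI and 81.3 in sham over exon 29 of 42 (chr2:155629339-155629608 in CCI). The CCI peak covered 270 bp and the sham peak 868 bp over 5 blocks, and a second CCI peak of 4.90 lay over the same sham peak. The smooth muscle gene *Myh11* had 7 peaks in CCI and 4 in sham, at most 12.1 and 13.

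Some paired peaks had unequal borders. In 7 of the 15 motor pairs lower in CCI past the fold, the sham peak was at least 1.5 times as long as the CCI peak. In 0 of the 15 the CCI peak was longer by that factor. Of the 190 motor pairs within the fold, the sham peak was longer by that factor in 17. Over all pairs of the series the sham peak was longer in 36.0% of those lower past the fold and in 11.0% of those within it, and the CCI peak was longer in 23.9% of those higher past the fold and in 6.53% of those within it. For the 17 motor pairs past the fold on the higher side the CCI peak was longer in 2 and the sham peak in 2. Among the 59 motor pairs with the same start and end, 8 were past the fold (13.6%), 6 higher and 2 lower in CCI. Of all 5237 such pairs of the series, 11.5% were past the fold, 383 higher and 218 lower.

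**Figure D5:**
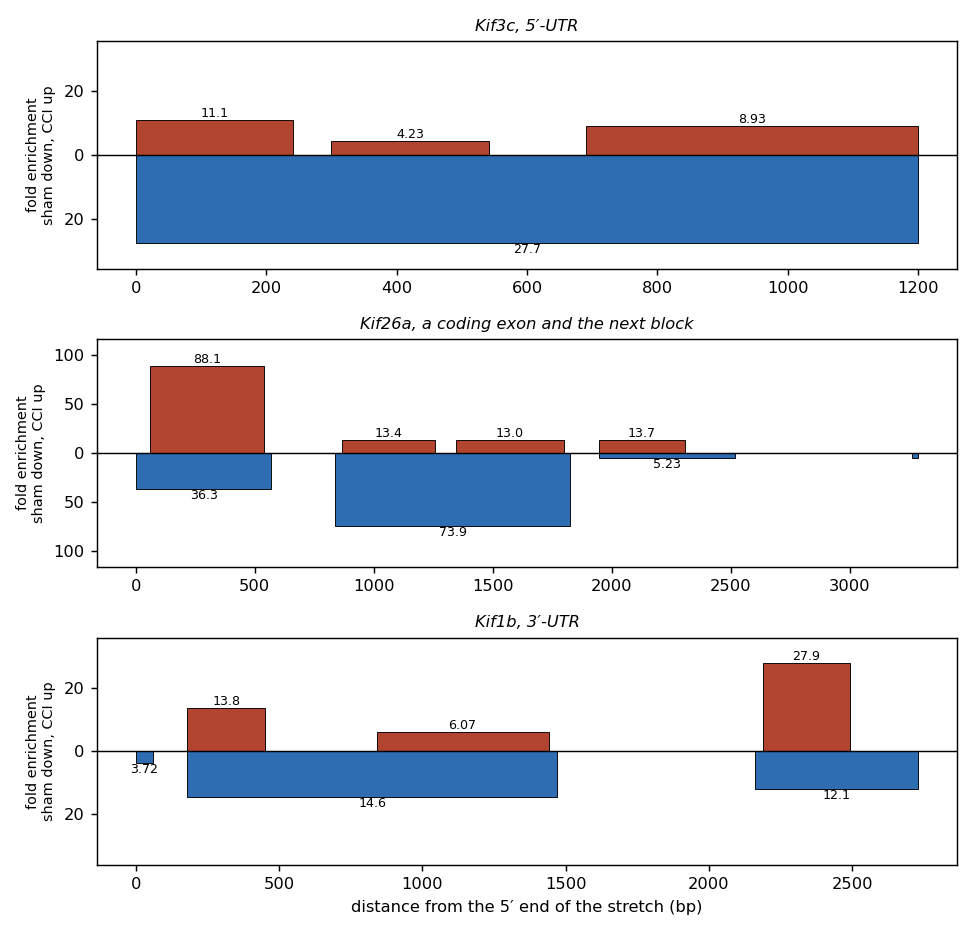
Peaks along 3 stretches, chosen after their values were seen, with the distance from the 5′ end of the stretch in bp on the x axis and the fold enrichment of each peak as bar height, CCI upwards and sham downwards. The sham peak of 1200 bp in *Kif3c* at 27.7 lies over 3 CCI peaks, the one of 989 bp in *Kif26a* at 73.9 over 2, and the one of 1291 bp in *Kif1b* at 14.6 over 2.

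*Kif3c*, *Kif26a* and *Kif1b* are examples of paired peaks with unequal borders. Whether the borders changed the values was not tested. In the 5′-UTR of *Kif3c* the sham list had 1 peak of 1200 bp at 27.7, where the CCI list had 3, at 11.1, 4.23 and 8.93, so the paired value was 8.93 against 27.7 (log2 ratio −1.63). In exon 12 of 16 of *Kif26a*, an atypical kinesin without motor activity, a sham peak of 989 bp at 73.9 lay over CCI peaks of 13.4 and 13 (−2.51 for the latter). The same exon had 2 pairs past the fold in the other direction, 88.1 against 36.3 just upstream and 13.7 against 5.23 just downstream, and the 3′-UTR peak of the gene was at 14.2 in CCI and 43.0 in sham. In *Kif1b* a sham peak of 1291 bp at 14.6 lay over CCI peaks of 13.8 and 6.07, while the neighbouring 3′-UTR peak was at 27.9 in CCI and 12.1 in sham. Neighbouring peaks of 1 exon or 1 UTR thus differed in opposite directions.

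Between the lists 63 motor genes were shared, of 63 with a peak in CCI and 67 in sham. Over all genes, 11761 were shared, of 12408 with a peak in CCI and 12907 in sham. There too, more genes were in sham only than in CCI only. 0 genes had a peak only in CCI and 4 only in sham: *Kif24*, a kinesin of centrioles (16.3 and 13.9), *Dync2li1*, a light intermediate chain of ciliary dynein (2.40), and the striated muscle myosins *Myh7* (2.47) and *Myh15* (3.23). Weak calls made up most of these peaks, with log10 false discovery rates against input of −3.48 and −2.42 for *Kif24*, −3.18 for *Myh7* and −2.38 for *Myh15*. The *Dync2li1* peak was at −7.48. The *Myh7* peak is annotated to an exon of another gene ID, and its 60 bases lie inside a CCI peak listed under *Gm29015*, a gene on the opposite strand (2.70 in CCI), so that region was not particular to sham. The muscle genes *Mylpf* and *Tnnt3* also had peaks in sham only, as given above, and the part of muscle RNA in the sham peaks was not tested. Spinal cord is a mixture of cell types, so fewer cells of a type and less RNA per cell cannot be told apart in such a list. *Myo18b* had 1 peak in each list, at different places (11.5 in CCI and 12.8 in sham), and the CCI one overlaps *1700095B10Rik*.

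The authors' table of differing regions named 33 motor genes in 62 rows, 33 of them in exons, 21 in 3′-UTRs and 8 in 5′-UTRs. That is 33 of the 67 motor genes with a peak, against 25.3% of all genes with a peak. The share with a row went up with the number of peaks. Among genes with at least 7 peaks in either list, 66.0% of all genes and 11 of 13 motor genes had a row, among those with 4 to 6 peaks 43.4% and 15 of 22, with 2 or 3 peaks 22.8% and 4 of 17, and with 1 peak 8.95% and 3 of 15. *Kif5a* had the most rows, 6, although none of its 8 pairs was past the fold.

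Adaptors, regulators and partner subunits that work with these motors were looked up as a list of 47 other gene names. The list includes *Kifbp*, a second symbol of the member *Kif1bp*, and no peak carried that name. Of them 37 had a peak in CCI and 38 in sham, and 106 pairs had a median log2 ratio of −0.14, with 63 lower in CCI (59.4%, against 47.8% of all pairs), 4 past the fold on the higher side (3.77%, against 8.59%) and 12 on the lower (11.3%, against 7.25%). The list and the motor genes were not tested against each other. Genes of the list without a peak in either table included *Kifap3*, the cargo subunit of kinesin-2, and *Rhot1*, a mitochondrial anchor of kinesin-1.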

How the data were processed

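The authors deposited 1 peak list each for CCI and sham and 1 table of differing regions. Per the labels' processing notes the build was GRCm38 and the tools were fastp, HISAT2, HOMER and ChIPseeker, whereas the paper's methods name Cutadapt, bowtie, MACS2 and ChIPseeker, and the columns are named as in exomePeak output. The use of strand in peak calling is not given in the sources used here. The fold enrichment is a ratio of IP over input that the authors computed, and the deposited log10 false discovery rate, for IP against input, was handled as a score. Of the table of differing regions only the annotated regions, gene names and row counts were used, and not the deposited region widths. Its columns of the authors' own comparison, a log2 fold change, a log10 p-value and a log10 false discovery rate, were not used.

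Peaks were matched by exonic blocks (at least 1 bp), without strand, and pairs were mutual best partners by shared bases over the union. One pair of a *Myo9b* peak with a *Haus8* peak was left out. Regions are the authors' annotation, and the exon label was not split into coding and noncoding exons. Some 3′-UTR labels fell on peaks over several exon blocks, such as 1 of *Kif3a* over 7 blocks. Shares carry 95% Wilson intervals and medians carry intervals from order statistics. Both cover counting error only. The pairing step was run on simulated lists of well separated, single-block peaks with equal lengths in both. Split, multi-block or unequal peaks, such as those of *Kif3c*, were not covered by it. Depth is unknown, as no counts were used. Genes were named by a fixed rule: 37 listed transport motors, the 5 largest differences in each direction, the 5 highest peaks of each list, the 5 genes with most peaks, and genes in 1 list only. Other genes were named after their values were seen. Members and lists were chosen with earlier results of these data known. The tools were scipy 1.17.1, pandas 2.3.3, matplotlib 3.10.9 and numpy 2.4.6 under Python 3.11.15.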

Additional observations from a re-analysis of the deposited data

How the results depend on the processing

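No paired analysis was possible because a group held a single IP and a single input library, and for the same reason leaving out a replicate could not be tried. Of 125 alternative values for the main results, 117 stayed within their limits and 8 moved, and of 106 for single genes 97 stayed and 9 moved, with 0 changes of sign in a called value. When a pair had to share at least 50% of both peaks, the share of motor peaks with a counterpart became 77.3% in CCI and 79.1% in sham, the pairs past the fold on the lower side dropped from 15 to 8, and the highest *Kif3c* pair went from a log2 ratio of −1.63 to −0.01. With peaks of at least 2-fold enrichment only, the median fold enrichment was 5.46 in CCI and 5.72 in sham. Taking the strongest peak of each gene in either list, overlapping or not, gave a median log2 ratio of 0.20 over the 63 genes in both lists. A log2 limit of 0.5 put 41 of the 222 pairs past it on the higher side and 32 on the lower. No share of all pairs is given at this limit, so the counts are not read as particular to motor genes. Counting each gene once by its mean turned the class medians of the kinesin light chains (to −0.18), the dynein chains (to −0.00), the dynein light chains (to −0.27) and the unconventional myosins (to −0.01) below 0. Centring on the median of all pairs turned the unconventional myosins to −0.02. The filter on pseudogene and antisense names removed 0 motor peaks and so tests nothing. Leaving out *Kif1bp* and the peaks annotated to another gene, an alternative chosen after seeing the data, gave a median log2 ratio of 0.01. Without read counts or replicates, the error of a single fold enrichment is unknown.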

Other observations

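The following partner genes were picked from the 47 after their values were seen. *Clstn1*, a kinesin light chain cargo, carried the highest peaks of the list, at 232 in CCI and 386 in sham, with a median log2 ratio of −0.05 over 4 pairs. *Pafah1b1*, a regulator of dynein, stood at 128 and 179, and *Unc45a*, a myosin chaperone, at 93.8 and 118. *Actr1a*, the Arp1 subunit of dynactin, had a highest peak of 34.4 in CCI and 174 in sham, and *Actr1b* of 10.6 and 27.2. *Mapk8ip1*, a scaffold that binds kinesin light chains, stood at 84.4 and 207 and had 2 of its 5 pairs past the fold on the lower side. *Trak1*, the mitochondrial adaptor of kinesin-1, had 14 peaks in CCI and 11 in sham, with 1 of 11 pairs past the fold on the lower side. *Mapk8ip3*, an axonal transport scaffold, had 13 pairs with a median log2 ratio of 0.05 and 0 past the fold.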
